A study of Mus musculus with 18 samples.

Results

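Glaucoma is a degeneration of retinal ganglion cells and the optic nerve for which eye pressure and age are the main risks. The peaks of open chromatin at 10 genes linked to it were examined here: Optn, Tbk1, Myoc, Opa1, Cyp1b1, Six6, Foxc1, Tmco1, Cav1 and Abca1. They were chosen by name, and a peak was assigned to a gene when it overlapped the stretch from 10 kb upstream of the gene's start to its end (mm10, GENCODE M21). They are 10 of 21951 protein-coding genes, of which 17119 had a peak in at least 1 library. Their windows held 357 of the 911837 peaks, and merging peaks that overlapped by at least 1 bp gave 37 regions out of 99792 in the whole series.

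The data were 18 ATAC-seq libraries of whole (bulk) retina from wild-type mice, 3 in each of 6 groups. ATAC-seq uses a transposase that cuts accessible DNA, so that fragments gather where chromatin is open. Mice were 3 or 18 months old (3mo, 18mo), and each age gave retinas of eyes whose intraocular pressure (IOP) was held at 30 mmHg during 1 hour, retinas of the opposite eyes of such animals (contralateral controls), and retinas of animals left untreated. Pressure was applied to 1 eye only, and the labels of these eyes and of the opposite ones give day 2, whereas the study's text gives another day. The treatment text shared by all samples names the kinase inhibitor dasatinib and a vehicle, but which libraries, if any, came from animals given the drug is not labelled. Untreated retinas carry replicate numbers 4 to 6 and the others 1 to 3, and a bulk retina does not show which cells carried an open region or whether more cells or more open copies stood behind a peak.

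Most of the 10 genes fall into a few roles. Optn (optineurin) is a receptor that feeds damaged mitochondria and other cargo into autophagy, and Tbk1 is the kinase that phosphorylates it. Opa1 is a GTPase that fuses the inner membranes of mitochondria and is the gene of dominant optic atrophy. Myoc (myocilin), Cyp1b1 (a cytochrome P450 enzyme) and Foxc1 (a forkhead transcription factor) are known for the drainage tissue at the front of the eye, and Six6 is a homeobox factor of eye and retina development. Tmco1 (a calcium channel of the endoplasmic reticulum), Cav1 (caveolin-1, the coat protein of caveolae) and Abca1 (a transporter that exports cholesterol) were linked to glaucoma through common variants near them.

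The genes differed first of all in whether their promoters were called. A promoter was taken from 1 kb upstream to 100 bp downstream of any annotated transcription start. Of the 10 genes, 8 had a promoter peak in all 18 libraries, Foxc1 had one in 6 libraries and Myoc had one in none. Among 21924 protein-coding genes so examined, 51.7% had a promoter peak in all 18 libraries, 12.4% in some and 35.8% in none. The promoters of Tmco1 (always called), Foxc1 (called in some) and Myoc (never called) are shown to set the 3 states side by side, with that of Abca1, whose start ranked higher in untreated retinas. They run from 250 bases before to 50 bases after the RefSeq start (GRCm38.p6), 5′ to 3′ on the strand of the gene, at chr1:167308420-167308719 (+), chr13:31806396-31806695 (+), chr1:162638900-162639199 (+) and chr4:53159846-53160145 (-). Capitals mark matches to 9 short motifs searched on both strands, which are the GC box (GGGCGG), the CCAAT box (those 5 letters), the TATA box (TATAAA), the xenobiotic response element (TNGCGTG), an ETS site (CCGGAAGT), the site of Crx and Otx2 (TAATCC), a homeodomain site (TAATTA), an AP-1 site (TGANTCA) and a STAT site (TTCNNNGAA), none of which contains another.
Tmco1: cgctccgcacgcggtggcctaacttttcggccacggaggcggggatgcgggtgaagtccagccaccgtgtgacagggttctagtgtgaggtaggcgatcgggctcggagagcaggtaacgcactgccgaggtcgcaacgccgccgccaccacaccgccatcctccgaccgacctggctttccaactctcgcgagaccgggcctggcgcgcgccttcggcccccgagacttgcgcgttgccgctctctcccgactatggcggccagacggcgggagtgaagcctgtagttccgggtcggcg
Foxc1: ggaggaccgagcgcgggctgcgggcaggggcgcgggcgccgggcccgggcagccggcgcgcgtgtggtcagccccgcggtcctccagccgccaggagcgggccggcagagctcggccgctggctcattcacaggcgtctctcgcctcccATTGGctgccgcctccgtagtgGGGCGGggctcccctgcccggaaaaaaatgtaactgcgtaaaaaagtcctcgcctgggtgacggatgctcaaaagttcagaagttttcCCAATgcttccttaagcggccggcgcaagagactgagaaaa
Myoc: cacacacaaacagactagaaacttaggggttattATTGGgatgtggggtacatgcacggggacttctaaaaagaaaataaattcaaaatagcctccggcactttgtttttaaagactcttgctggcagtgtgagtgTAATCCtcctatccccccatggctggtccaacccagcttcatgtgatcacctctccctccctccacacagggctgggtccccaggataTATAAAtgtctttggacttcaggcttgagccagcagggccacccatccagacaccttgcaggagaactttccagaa
Abca1: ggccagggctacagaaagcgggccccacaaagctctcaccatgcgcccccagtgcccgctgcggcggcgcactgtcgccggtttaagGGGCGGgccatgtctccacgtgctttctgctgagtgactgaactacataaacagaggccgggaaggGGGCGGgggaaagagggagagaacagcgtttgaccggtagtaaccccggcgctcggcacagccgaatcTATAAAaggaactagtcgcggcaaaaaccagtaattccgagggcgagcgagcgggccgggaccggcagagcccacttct

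CpG dinucleotides in the 300 bases of the Myoc promoter numbered 2, an observed over expected ratio of 0.114, at the 15.4th percentile of the 32851 promoters in the RefSeq table. The Tmco1 promoter held 39 CpG, a ratio of 1.10 (98.1th percentile), and the Foxc1 promoter held 32, a ratio of 0.943 (90.6th percentile). The remaining members lay between 0.534 for the first Cav1 start and 1.05 for Tbk1, and the median of all promoters was 0.384. A CpG-rich promoter was present both where the start was called everywhere (Tmco1) and where it was called in 6 libraries (Foxc1).

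The motif matches are a description of letters only. The Myoc promoter had a TATAAA that begins 26 bases before the start, and the Abca1 promoter one that begins 29 bases before it. The promoter of the first Cav1 start had a match on the opposite strand, 221 bases before the start. Of all promoters of this length, 13.6% held 1 somewhere on either strand, and the share at a given place was not counted. GGGCGG was found in 8 of the 10 members (the first listed start of each) and in 35.7% of all promoters, and it was not found in the Tmco1 or the Myoc window. The Tmco1 window held none of the 9 motifs. TAATCC, the site read by the photoreceptor factors Crx and Otx2, was found in the promoters of Optn and Myoc and in 7.06% of all promoters.

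**Figure D1:**
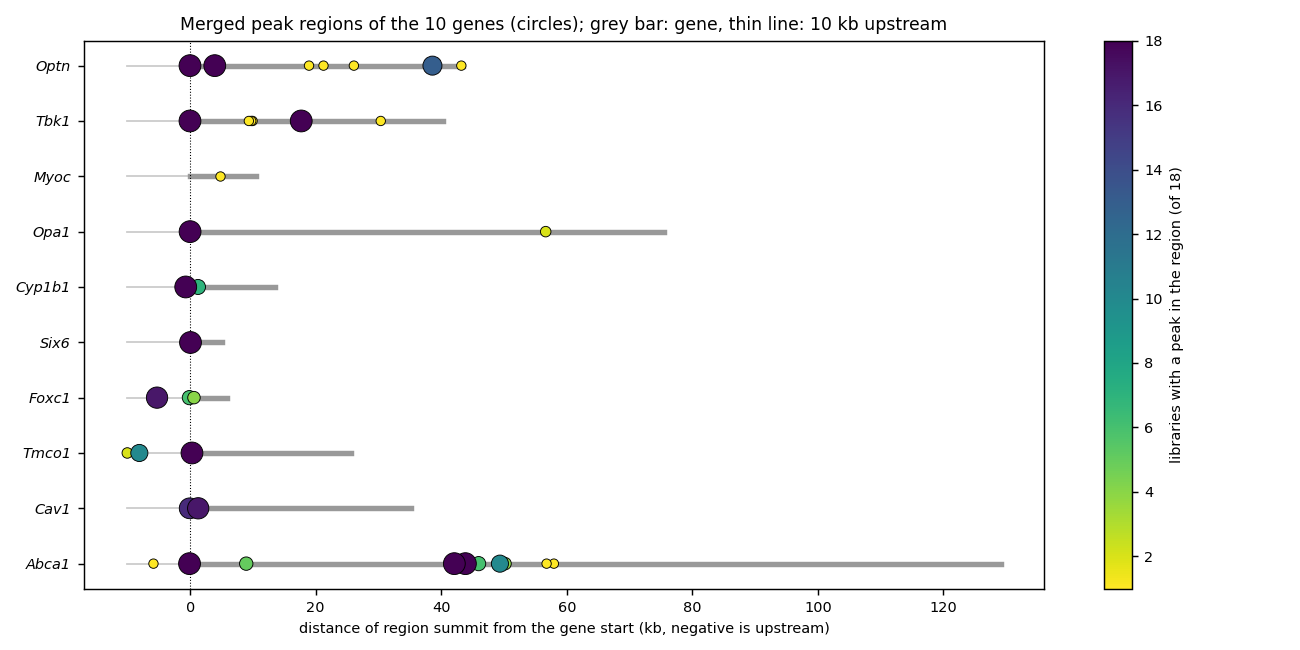
Position of the 37 merged regions (circles) along each of the 10 genes, with the distance of the summit from the gene start in kb on the x axis. Circle size and colour give the number of the 18 libraries with a peak there. The starts of Optn, Tbk1, Opa1, Cyp1b1, Six6, Tmco1 and Abca1 were called in all 18, as were 1 intronic region each of Optn and Tbk1 and 2 of Abca1, and Myoc held a single circle from 1 library.

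Of the 37 regions, 11 were called in all 18 libraries, 14 in 2 to 17 and 12 in 1 library only. By the median summit, promoters held 9 regions, exons 4, introns 20 and intergenic sequence 4. The merged regions called everywhere had a median width of 929 bp, against 369 bp for those called in 2 to 17 libraries and 151.5 bp for those called in 1. A merged region spans all its peaks, so its width can grow with the number of libraries merged. At the Abca1 start the merged region was 1685 bp wide, while its median peak was 416 bp. MACS2, the peak caller, gives each peak a q-value and a fold over the local background, and both are set within a library. The mean −log10 q had a median of 48.6 over the regions called everywhere, 5.23 over those called in 2 to 17 libraries and 3.91 over those called once. A region without a peak in a library may have been open below the threshold of q at 0.05, so a missing call is not a measured absence of open chromatin.

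Optn lies on chr2:5020642-5064051 (minus strand, ENSMUSG00000026672.11). Its window held 2, 3 and 2 peaks in 3mo contralateral controls, 4, 3 and 3 in 3mo IOP and 3, 2 and 3 in 3mo untreated retinas. At 18mo it held 4, 4 and 3 peaks in contralateral controls, 3, 2 and 2 in IOP and 4, 4 and 4 in untreated retinas. The 18mo controls were thus at 3 or 4 and the 3mo controls at 2 or 3, and IOP retinas lay high at 3mo and low at 18mo. In every library 2 of the peaks were the promoter, chr2:5063424-5064506, with its summit 29 bp upstream of the start, and a region in an intron 3.9 kb downstream, chr2:5059901-5060503. The mean fold over background was 8.76 ± 1.08 at the promoter and 6.41 ± 1.41 in the intron (SD, n = 18).

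Another Optn region, chr2:5025224-5025634, lay in an intron 38.6 kb from the start and was called in 13 of the 18 libraries. It was called in 1 of 3 contralateral, 3 of 3 IOP and 2 of 3 untreated retinas at 3mo, and in 3 of 3, 1 of 3 and 3 of 3 at 18mo. It was a weak peak wherever it was listed, with a mean −log10 q of 6.24 ± 1.56 (SD, n = 13) and a mean place at the 28.4th percentile of its library's list. In 18mo untreated replicates 4 and 5 it held 2 peaks. The remaining 4 Optn regions were called in 1 library each. The 101 bases around the summits of the region in 13 libraries (chr2:5025407-5025507) and of the intronic region in all 18 (chr2:5060082-5060182) are shown because the first was called in 13 libraries and the second in all (minus strand, capitals as above).
Optn, 38.6 kb from the start: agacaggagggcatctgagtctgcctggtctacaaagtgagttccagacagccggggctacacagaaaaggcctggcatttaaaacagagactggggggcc
Optn, 3.9 kb from the start: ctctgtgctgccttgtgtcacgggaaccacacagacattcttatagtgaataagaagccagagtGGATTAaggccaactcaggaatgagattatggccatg

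The reference marks 75.9% of the bases of the region 38.6 kb from the Optn start as repeats, and 13.3% of those of the region at 3.9 kb. Reads in repeats can have more than 1 place in the genome, and their part in these calls was not tested. The window at 3.9 kb held 1 match to TAATCC on the opposite strand, a motif found in 11.4% of the 73449 windows of 101 bases around the summits of consensus regions (merged regions that 2 or more libraries called). Another annotated gene on the opposite strand, 4930551O13Rik, lies within Optn.

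Tbk1 (chr10:121546455-121586787, minus strand) had 2 peaks in 13 of the 18 libraries, 3 in 4 and 4 in 3mo untreated replicate 6. The constant pair was the promoter, chr10:121586272-121587358, and a region 17.7 kb downstream in an intron, chr10:121568649-121569724. They were nearly alike in strength, with a mean fold of 16.0 ± 2.22 at the promoter and 14.9 ± 3.11 in the intron (SD, n = 18). The intronic region stood at the 88.6th percentile of its library's list on average, well above the intronic region of Optn at the 75.5th. Its summit window (chr10:121569044-121569144, minus strand) is shown as the strongest region of the 10 genes away from a start, and it also held 1 TAATCC on the opposite strand.
Tbk1, 17.7 kb from the start: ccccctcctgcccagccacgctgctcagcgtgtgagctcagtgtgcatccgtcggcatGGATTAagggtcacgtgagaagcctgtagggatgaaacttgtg

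Opa1 (chr16:29579334-29654884, plus strand) was the barest of the long genes. Its 85.6 kb window held 1 peak in 16 libraries, the promoter at chr16:29579010-29579856, and a second peak 56.6 kb from the start in 3mo contralateral control replicate 2 and 3mo untreated replicate 4. Its peak density was 0.130 per 10 kb, at the 11.2th percentile of the genes with a peak. The promoter had the highest mean fold of any member region, 16.96 ± 2.42 (SD, n = 18).

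Myoc (chr1:162639155-162649693, plus strand) had no peak in 17 of 18 libraries. The exception was 3mo IOP replicate 3, with 1 peak in an intron 4.8 kb from the start, chr1:162643890-162644063, at a −log10 q of 4.33 and the 18.6th percentile of that list. Myocilin is made mainly by the trabecular meshwork and ciliary body, tissues outside the retina. Whether this bears on the missing calls was not tested.

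Cyp1b1 (chr17:79701537-79715061, minus strand) was called 0.7 kb upstream of its start in all 18 libraries, at chr17:79715447-79716128, and in exonic sequence 1.2 kb downstream in 7. It held 1, 2 and 1 peaks in 3mo contralateral controls, 1, 1 and 2 in 3mo IOP and 1, 1 and 2 in 3mo untreated retinas, then 2, 1 and 2, 2, 1 and 1, and 1, 3 and 1 in the same order at 18mo. The groups overlapped at both ages. Six6 (chr12:72939892-72944899, plus strand) had 1 region, chr12:72939332-72940665, which was called in all 18 libraries and was split into 2 peaks in 4 of them. These 4 were 18mo contralateral control replicates 1 and 2, 18mo IOP replicate 1 and 18mo untreated replicate 5.

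Foxc1 (chr13:31806633-31812476, plus strand) had its leading region away from the start, as did Myoc with its single peak. An intergenic region 5.3 kb upstream, chr13:31801123-31801902, was called in 17 of 18 libraries (all but 3mo untreated replicate 5) with a mean fold of 8.40 ± 1.88 (SD, n = 17). The annotated start nearest to its summit was that of another gene, Gm11379, at 3818 bp. The Foxc1 start itself, chr13:31806269-31806810, was called in 6 libraries at a mean −log10 q of 4.05 ± 1.87 (SD, n = 6). Those 6 were 1 each of the 3mo contralateral, 3mo IOP, 3mo untreated and 18mo contralateral groups and 2 of the 18mo IOP group, and none was an 18mo untreated retina. One more region, in the exon 0.6 kb downstream was called in 4 libraries.

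Tmco1 (chr1:167308378-167333978, plus strand) and Tbk1 had the strongest starts by place in the library's list. The Tmco1 start region, chr1:167308152-167309080, stood at the 95.5th percentile on average (95.4th for that of Tbk1), with a mean fold of 16.2 ± 1.78 (SD, n = 18). The summit lay 286 bp downstream of the GENCODE start and 6 bp before the RefSeq start. A region 8.1 kb upstream, chr1:167300189-167300410, was called in 6 of 6 untreated retinas, 2 of 6 contralateral controls and 2 of 6 IOP retinas. Its summit window (chr1:167300230-167300330, plus strand) is shown because this was the member region with the largest gap in calling between kinds of control.
Tmco1, 8.1 kb upstream: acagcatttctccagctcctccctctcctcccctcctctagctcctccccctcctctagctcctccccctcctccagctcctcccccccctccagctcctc

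That window is a run of short repeated units. C and T make up 86.1% of its bases, and the reference marks 99.0% of them as repeat.

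Cav1 (chr6:17306335-17341452, plus strand) was called at 2 starts. The first, chr6:17305960-17306609, had a peak in 16 libraries and the second, chr6:17307390-17307866, whose summit lay 27 bp before a second RefSeq start, in 17. Both were moderate, with mean folds of 5.82 ± 1.13 (SD, n = 16) and 5.85 ± 1.27 (SD, n = 17). At least 1 of them was called in every library, and no peak lay elsewhere in the 45.1 kb window.

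Abca1 (chr4:53030787-53159895, minus strand) had the most peaks, from 4 to 8 per library, in the longest window, 139.1 kb. Its peak density was 0.395 per 10 kb, at the 36.3th percentile of the genes with a peak. Its promoter region was split into 2 or 3 peaks in 15 of the 18 libraries and supplied 35 of its 99 peaks. It held 6, 8 and 4 peaks in 3mo contralateral controls, 5, 4 and 4 in 3mo IOP and 5, 4 and 6 in 3mo untreated retinas. At 18mo it held 8, 4 and 6 peaks in contralateral controls, 5, 7 and 4 in IOP and 7, 6 and 6 in untreated retinas. The promoter, chr4:53158558-53160242, and 2 intronic regions 42.1 and 43.8 kb downstream, chr4:53117610-53118012 and chr4:53115902-53116234, were called in all 18 libraries. Further along the same intronic sequence lay weaker regions, called in 6 libraries at 45.9 kb, 10 at 49.3 kb and 4 at 50.2 kb from the start. The region at 45.9 kb was called in 3 of 3 untreated retinas at 18mo and in 1 of 3 at 3mo. The summit windows of the constant pair (chr4:53116000-53116100 and chr4:53117763-53117863, minus strand) are shown for the differences in rank given further on, and neither held any of the 9 motifs.
Abca1, 43.8 kb from the start: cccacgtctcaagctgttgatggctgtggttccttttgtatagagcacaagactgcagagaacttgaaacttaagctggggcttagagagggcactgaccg
Abca1, 42.1 kb from the start: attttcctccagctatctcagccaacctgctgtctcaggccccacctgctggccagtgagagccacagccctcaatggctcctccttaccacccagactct

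**Figure D2:**
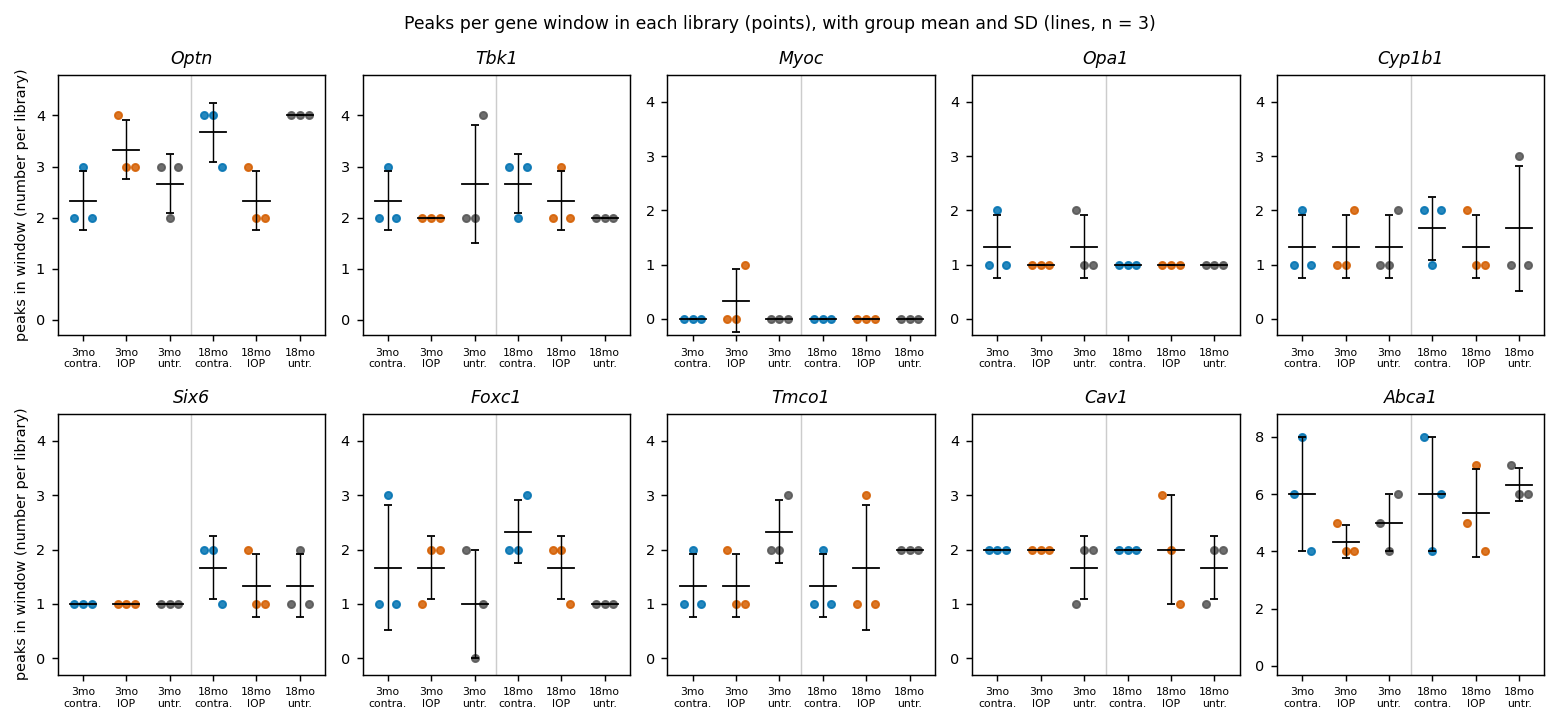
Number of peaks in the window of each gene (y axis, peaks per library) in the 6 groups (x axis, contra. for contralateral control and untr. for untreated). Points are the 3 libraries of a group, the horizontal line is their mean and the bar the SD. Optn is the gene whose 18mo controls (3 or 4 peaks) sit above its 3mo controls (2 or 3), and Myoc is at 0 in all but 1 library.

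Libraries differed in the length and grain of their lists. They listed 36011 to 66160 peaks, the members holding 14 to 26 of them. The shortest peak was 79 to 89 bp in the 6 untreated lists and 114 to 157 bp in the 12 others, and the median peak was 161 to 192 bp against 264 to 395 bp. The lists give no reads per region, so the depth behind a value is not known from them, and their length limits what can be called. Among markers of retinal cells, the 4 rod genes had a promoter peak in all 18 libraries. The 3 cone genes had one in 13 to 18 libraries and the 3 genes of bipolar cells in 2 to 18. Of 4 genes of amacrine and horizontal cells 3 had one in all 18, and the 3 genes of Müller glia had one in 8 to 18. Of 4 ganglion cell genes 1 had one in all 18 and 1 (Sncg) in none. Of 9 genes of microglia, endothelium, pigment epithelium and lens or ciliary body, 8 (all but Otx1, 6 libraries) had none.

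Age was compared between the 6 control retinas of 18mo and the 6 of 3mo, contralateral and untreated together. Optn had more peaks in its window at 18mo, with 3.83 ± 0.408 against 2.5 ± 0.548 (SD, n = 6 each), a difference of 1.33 peaks. The 2 sets shared the value 3, which 1 of the 18mo and 3 of the 3mo controls had. The exact permutation test over all 924 arrangements gave p = 0.00866 (two-sided), which became 1 after Benjamini-Hochberg adjustment over the 17119 genes. The difference was 1.33 within the contralateral controls and 1.33 within the untreated retinas. None of the 10 genes had an age effect that differed between the kinds of control at an exact permutation p under 0.05 (0.567% of all genes did), and none of the 11 regions called in all libraries did in rank (6.13% of all such regions did), the lowest p by the exact permutation test being 0.05 for the Abca1 region 42.1 kb from the start. The region 38.6 kb from the start made up part of the Optn difference, with calls in 6 of 6 controls at 18mo and 3 of 6 at 3mo (Fisher's exact test, two-sided, p = 0.182, unadjusted, the smallest that 9 calls in 12 libraries allow). Another part was its split into 2 peaks in 18mo untreated replicates 4 and 5. The rest were weak regions called in 1 library each, in 18mo contralateral control replicates 1 and 2 and 18mo untreated replicate 6.

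Optn was the only one of the 10 genes under an unadjusted p of 0.05 for age, while 1.73% of all tested genes were (264 higher and 32 lower at 18mo, none after adjustment). The 18mo control lists were 50595 to 60755 peaks long and the 3mo control lists 39202 to 66160. When each library kept only its 36011 highest peaks, the length of the shortest list, the Optn difference was 0.50 peaks (exact permutation test, p = 0.182). With the window carried 10 kb past the end it was 1.00 (p = 0.188), also by the exact permutation test, and within 2.5 kb of the start it was 0.00.

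The other 9 genes gave differences from -0.33 peaks for Opa1 to 0.67 for Abca1. Abca1 held 6.17 ± 1.33 against 5.50 ± 1.52 peaks (SD, n = 6 each, exact permutation test, p = 0.558). Six6 had 1.5 ± 0.548 peaks at 18mo and exactly 1 in each 3mo control (exact permutation test, p = 0.182). The median difference over the 10 genes was 0.17 peaks, and over all tested genes 0.00. Of the 25 member regions that 2 or more libraries called, 3 could reach p under 0.05 for age and none did, the smallest being 0.242 by Fisher's exact test for the Abca1 region 45.9 kb from the start (4 of 6 calls at 18mo, 1 of 6 at 3mo). Of all regions that could reach it, 3.58% did.

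No rank difference between ages was under p = 0.05 at these genes by the exact permutation test. The rank of a region was its percentile by highest −log10 q, within each library, among the 24751 regions called in all 18 libraries (100 is the strongest). The 11 member regions so ranked differed between ages by -6.19 (Six6 start) to 7.49 points (Cyp1b1 start), and their exact permutation p ran from 0.286 to 0.909, all unadjusted. Over all ranked regions 8.13% had p under 0.05 and none passed the adjustment. Within untreated retinas the age differences ran from -12.1 points (Six6 start) to 11.5 (Cyp1b1 start). Within contralateral controls they ran from -5.41 (Abca1, 42.1 kb) to 14.6 (Abca1, 43.8 kb). With 3 retinas of each age in each kind, these were not tested on their own. The Tmco1 start stood at 91.5 ± 3.41 at 18mo and 91.8 ± 3.97 at 3mo, and the Optn region 3.9 kb from the start at 53.7 ± 5.91 and 53.3 ± 7.80 (SD, n = 6 each).

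**Figure D3:**
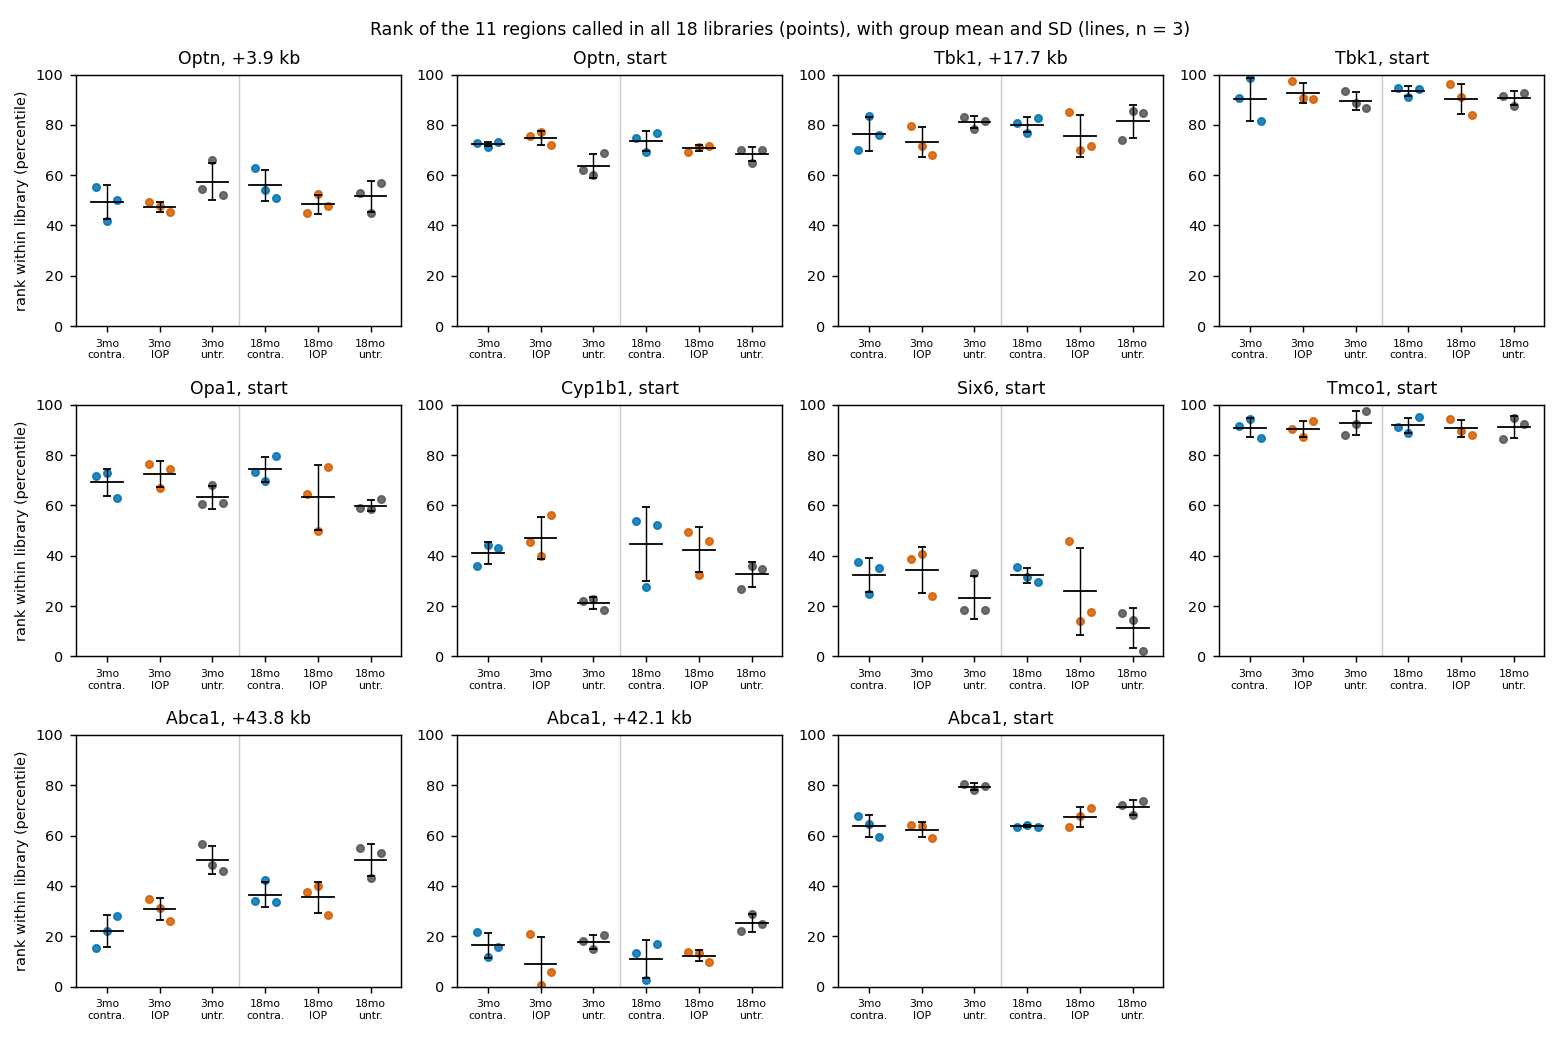
Rank (y axis, percentile within the library, 0 to 100) of the 11 member regions called in all 18 libraries, in the 6 groups (x axis). Points are the 3 libraries of a group, lines their mean and bars the SD. At the Abca1 start untreated retinas lie between 68.0 and 80.6, above contralateral controls (59.4 to 67.6) but overlapping IOP retinas (59.0 to 71.1), and at the Abca1 region 42.1 kb from the start untreated and contralateral retinas overlap.

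IOP was compared between treated and contralateral retinas, first across both ages with labels permuted within age (400 arrangements) and then at each age. None of the 10 genes was under p = 0.05 in the number of peaks, while 1.16% of all genes were (21 higher and 178 lower after IOP, none after adjustment, by the exact permutation test). The largest difference was at Abca1, with 4.83 ± 1.17 peaks after IOP and 6.00 ± 1.79 in contralateral retinas (SD, n = 6 each, exact permutation test, p = 0.30). Splitting of its promoter region, called in all 18 libraries, made up part of this difference. That region held 3, 3 and 2 peaks in 3mo contralateral and 2, 1 and 1 in 3mo IOP retinas. At 18mo it held 2, 1 and 2 in contralateral and 2, 2 and 2 in IOP retinas. The difference was below 0 for 7 members, above 0 for 2 and exactly 0 for 1, with a median of -0.17 for the members and for all genes alike. IOP lists were 36011 to 51818 peaks long and contralateral lists 39202 to 66160.

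With 3 retinas against 3 the smallest two-sided p is 0.1, so each age is described by overlap. The groups overlapped for all 10 genes at both ages. Over all tested genes they did not overlap in 0.619% at 3mo and in 5.51% at 18mo. At neither age did a member region have 3 calls in IOP and 0 in contralateral retinas, or the reverse, against 0.458% of all consensus regions at 3mo and 2.47% at 18mo. Of the 25 member regions 2 could reach p under 0.05 in the stratified exact test, with p = 1 the smallest (5.04% of all regions that could reach it did).

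Optn was the member where IOP and contralateral retinas lay in opposite order at the 2 ages. After IOP it held 3.33 ± 0.577 peaks against 2.33 ± 0.577 at 3mo, and 2.33 ± 0.577 against 3.67 ± 0.577 at 18mo (SD, n = 3 each). The difference of the 2 IOP effects was -2.33 peaks, with p = 0.03 by an exact permutation test (400 arrangements) and an adjusted p of 1, and 0.298% of all genes were under 0.05. It rests on the same contralateral retinas as part of the age comparison, so the 2 are not separate evidence. The distal intronic region followed the same order, called in 1 and 3 of 3 retinas at 3mo (contralateral, then IOP) and in 3 and 1 of 3 at 18mo. With equal list lengths the difference of effects was -1 (exact permutation test, p = 0.20), and without 3mo contralateral control replicate 1 or replicate 3 it was -2.17 (exact permutation test, p = 0.06 in both).

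In rank, IOP and contralateral retinas differed by -4.63 points (Optn, 3.9 kb from the start) to 3.80 (Abca1, 43.8 kb) over the 11 regions. The exact permutation p ran from 0.14 to 0.96, and 8.14% of all ranked regions were under 0.05 with none passing the adjustment. The Optn intronic region stood at 47.9 ± 2.71 after IOP and 52.6 ± 6.82 in contralateral retinas (SD, n = 6 each). Leaving out 3mo contralateral control replicate 2, where it stood lowest at 42.0, brought that 1 region under p = 0.05 in the exact permutation test. No ranked region passed the adjustment for IOP in any fit that left out a library. The IOP effect on rank did not differ between ages for any of the 11 regions at an exact permutation p under 0.05 (2.98% of all ranked regions were under it).

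**Figure D4:**
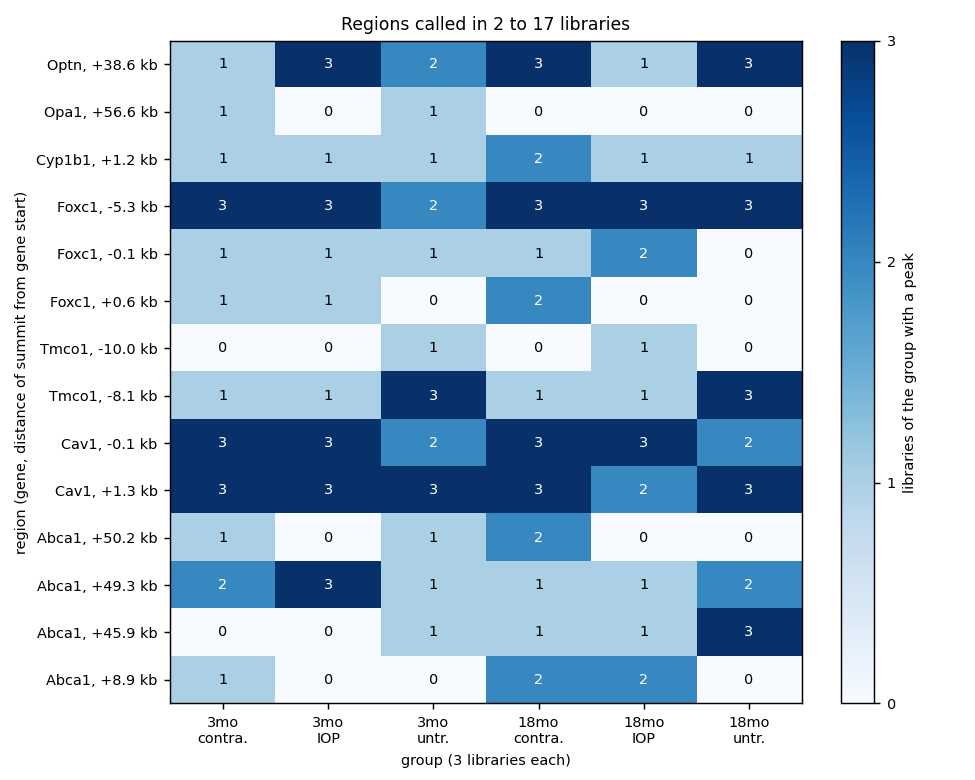
Number of libraries (0 to 3, printed and shaded) with a peak in each of the 14 member regions called in 2 to 17 libraries, by group (x axis). Rows give the gene and the distance of the summit from its start. The Tmco1 region 8.1 kb upstream has 3 of 3 in both untreated groups and 1 of 3 in the other 4 groups.

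The 2 kinds of control, untreated animals and contralateral eyes, gave differences at these genes that passed the adjustment, which age and IOP did not. Ranked by −log10 q, 5 of the 11 member regions differed at an adjusted p under 0.05, against 22.9% of all ranked regions, and 7 were under an unadjusted 0.05, against 38.4%. Abca1 was higher in untreated retinas, and the starts of Optn, Opa1 and Six6 were lower. The untreated lists are also those with the shorter peaks and with their own replicate numbers, so kind of control and the making of the lists cannot be told apart here.

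At Abca1 the region 43.8 kb from the start stood at 56.8, 48.2 and 45.9 in 3mo untreated and 55.03, 43.2 and 53.2 in 18mo untreated retinas. Contralateral controls stood at 15.5, 22.2 and 28.2 at 3mo and 33.9, 42.4 and 33.5 at 18mo, so the 2 kinds did not overlap. The means were 50.4 ± 5.40 and 29.3 ± 9.50 (SD, n = 6 each), a difference of 21.1 points with p = 0.00216, the smallest this exact permutation test can give, and an adjusted p of 0.0186. IOP retinas lay with the contralateral controls, at 33.1 ± 5.40 (SD, n = 6). The difference was 28.3 points at 3mo and 13.9 at 18mo.

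The Abca1 start behaved alike, at 80.6, 78.1 and 79.8 in 3mo untreated and 72.1, 67.98 and 73.7 in 18mo untreated retinas. Contralateral controls stood at 67.6, 64.5 and 59.4 at 3mo and 63.5, 64.4 and 63.4 at 18mo, below every untreated retina, while IOP retinas reached 71.1. The difference was 11.6 points (exact permutation test, p = 0.00216, adjusted p = 0.0186). The region at 42.1 kb differed by 7.88 points, with an unadjusted p of 0.0346 by the exact permutation test and an adjusted p of 0.102. Mean folds at the start were 14.0 ± 1.05 in untreated, 9.50 ± 1.67 in contralateral and 9.04 ± 0.918 in IOP retinas (SD, n = 6 each), values that each library sets against its own background.

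Lower in untreated retinas were the start of Six6, at 17.2 ± 9.94 against 32.3 ± 4.60, and that of Opa1, at 61.5 ± 3.60 against 71.8 ± 5.44 (SD, n = 6 each). Their differences were -15.05 points (exact permutation test, p = 0.00866, adjusted p = 0.041) and -10.3 points (exact permutation test, p = 0.00433, adjusted p = 0.0274). The Optn start differed by -6.90 points (exact permutation test, p = 0.00649, adjusted p = 0.0343), at 66.0 ± 4.34 against 72.9 ± 2.61 (SD, n = 6 each). The groups overlapped at all 3. Cyp1b1 gave -16.0 points, with an adjusted p of 0.0531 by the exact permutation test. The starts of Tbk1 and Tmco1 and both intronic regions of Optn and Tbk1 had unadjusted p from 0.314 to 0.773 by the exact permutation test. Ranked by fold in place of −log10 q, 4 of the 11 regions were under 0.05 and those of Optn and Six6 were not, at exact permutation p of 0.0584 and 0.0649. The share of members under 0.05 was then no larger than that of all ranked regions, of which 6040 passed the adjustment. Over 4 other settings and 12 fits that each left out a library, both Abca1 regions kept an adjusted p under 0.05 in every one (0.0177 to 0.0352). The adjusted p of Opa1 was over 0.05 in 1 of the 4 and 7 of the 12, at most 0.056, and those of Optn and Six6 reached 0.14 and 0.15, so these 3 calls rest on the setting.

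In the number of peaks, Tmco1 was the only member under p = 0.05 between the kinds of control by the exact permutation test. It held 2, 2 and 3 peaks in 3mo untreated and 2, 2 and 2 in 18mo untreated retinas, and 1, 2 and 1 in contralateral controls at either age. The means were 2.17 ± 0.408 and 1.33 ± 0.516 (SD, n = 6 each, exact permutation test, p = 0.0455, adjusted p = 0.507), and 9.03% of all genes were under 0.05. The region 8.1 kb upstream carried most of this difference, with 6 of 6 against 2 of 6 calls (Fisher's exact test, p = 0.0606, the smallest that 8 calls in 12 libraries allow). The rest was a weak region 10.0 kb upstream, called in 3mo untreated replicate 6 and in no contralateral control. Without 3mo untreated replicate 6 the Tmco1 difference was 0.67 peaks (exact permutation test, p = 0.0606). Of all regions that could reach p under 0.05 in calling, 11.4% did, and of the 3 member regions that could, none did.

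A list of 32 further genes linked to glaucoma or eye pressure was counted in the same way. Of these 31 had a peak in at least 1 library, Tek being the exception, and 16 had a promoter peak in all 18 libraries, 13 in some and 2 in none. None was under p = 0.05 for age or for IOP by the exact permutation test. The median differences were 0.17 peaks for age and -0.17 for IOP, against 0.00 and -0.17 over all genes. Between the kinds of control 1 of the 31 was under 0.05, where 9.03% of all genes were. That gene was Txnrd2, a mitochondrial thioredoxin reductase, which had fewer peaks in untreated than in contralateral retinas, at 2.33 ± 0.516 against 3.67 ± 0.816 (SD, n = 6 each, exact permutation test, p = 0.0216, adjusted p = 0.337).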

How the data were processed

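ATAC-seq reads were aligned by the authors with STAR 2.7.8a and peaks were called per library with MACS2, and bedtools 2.29.2, HOMER and edgeR are also named in the submitters' processing notes. The deposited peak lists (mm10) give for each peak a score, a fold over background (a ratio), and p and q as −log10 values (−log10 q of at least 1.301). They hold no read counts, so depth is unknown and no count model was used.

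Computed here with Python 3.11.15, numpy 2.4.6, pandas 2.3.3 and scipy 1.17.1 were peaks per gene window, merged regions (1 bp overlap, in at least 2 of 18 libraries for tests) and ranks by −log10 q. Groups came from the labels. Differences were tested two-sided by exact permutation (IOP within age) or Fisher's exact test, with Benjamini-Hochberg adjustment over all genes or regions, after the code had been checked on simulated data. The study speaks of biological replicates and of tissue taken from each eye, but the labels do not tie libraries to animals. All 10 members are named, and a further gene is named at an unadjusted p under 0.05. The members and lists were chosen with earlier results of these data known. Alternatives were a stricter q, equal list lengths, other windows and overlaps, ranking by fold, strata, and leaving out each library. Whether like replicate numbers mark the 2 eyes of 1 animal could not be told. Between IOP and contralateral retinas of like number, the correlations of deviations in rank were -0.284, -0.314 and 0.184 at 3mo. At 18mo they were 0.333, 0.250 and -0.108, and deviations within groups of 3 libraries cannot decide the pairing.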

Additional observations from a re-analysis of the deposited data

Results flagged for a closer look

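Among 42 sets of 6 control values (10 genes and 11 regions at each age) checked for a library far from the rest, 3 stood out. The limit used (Dixon's) is set to pass about 1 in 20 sets of normally distributed values by chance, and its rate for small whole numbers with ties was not tested. Optn had 3 peaks in 18mo contralateral control replicate 3, while the other 18mo controls had 4. Cav1 had 1 peak in 18mo untreated replicate 4 and 1 peak in 3mo untreated replicate 4, while the other controls of either age had 2.

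Of 42 differences of effects computed, that of Optn had an unadjusted p under 0.05. Its IOP effect at 18mo minus that at 3mo was -2.33 peaks (exact permutation test, p = 0.03, adjusted p = 1), from effects of -1.33 and 1.00 peaks.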

How the results depend on the processing

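Of 471 values recomputed under another setting, 431 were classed as unchanged and 0 as reversed. Of the 471, 306 were counts of members or features under a threshold, which have no direction, and 287 of these were unchanged. A shifted count could still be classed as unchanged, such as 5673 ranked regions against 4623 without 3mo contralateral control replicate 1. The remaining values were differences, unchanged when they kept their direction and their side of the threshold. By the exact permutation test for age, the number of members under p = 0.05 was 0 with equal list lengths and 0 in a 2.5 kb promoter window, and with the window carried 10 kb past the end the 1 member was Six6 in place of Optn. Requiring peaks to cover at least 50% of a region gave 1 member region for age under p = 0.05 by Fisher's exact test (Optn, 38.6 kb from the start). The share of all regions under 0.05 for age was then below the 3.58% of the main setting, and none passed the adjustment. For kind of control this rule gave 2 member regions (the first Cav1 start and the Abca1 start). There 6814 of all regions passed the adjustment, nearly as many as did not among those that could reach p under 0.05. This rule counts narrow peaks less. For kind of control, the number of members was 2 with the stricter threshold (Foxc1 and Tmco1), 2 with equal list lengths (Tmco1 and Cav1), 0 in the promoter window and 0 with age as a stratum, and 0 to 2 when 1 library was left out (0 without 3mo untreated replicate 6). In the main setting 9.03% of all genes were under 0.05, and no gene passed the adjustment in any of these settings. Calling gave 1 region with equal list lengths (Tmco1, 8.1 kb upstream), with 367 of all regions after adjustment, and 0 to 1 when 1 library was left out (1 without contralateral control replicate 2 of either age). With equal list lengths the share of all regions under 0.05 was above the 11.4% of the main setting. Ranking by fold gave 4 regions, and leaving out 1 library gave 6 to 7 for kind of control and 0 to 1 for IOP. Of all ranked regions 6040 passed the adjustment for kind of control by fold, and 4323 to 4900 when 1 library was left out. None passed it for IOP. The cause of these shifts in count was not tested.

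Whether libraries were paired could not be told. With like replicate numbers taken as pairs, the fit with the replicate block gave 0 members for IOP in number, calling and rank. In rank it changed no call. In number and calling no member could have fallen under the p threshold, because that takes a difference within every pair. No gene differed in peak number within every pair, and no member region differed in calling within every pair. The 0 in number and calling therefore decides nothing. Lists without counts, 3 libraries a group and a caller threshold limit what could be detected.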
